A study of Drosophila melanogaster with 6 samples.

Results

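The genes described here are those whose symbol is only a CG number, a serial name given to a predicted gene, and whose transcripts were more abundant in antennae after knockdown of the transcription factor E93 (*Eip93F*, FBgn0264490). They were chosen by a rule on the counts themselves. A gene needed a symbol made of CG and digits, a mean raw count of at least 20 in the 3 E93RNAi samples, and a mean CPM (the count scaled by the total gene counts of the sample) of at least 3 times that of the 3 Control samples. The desaturase-like genes *CG9747*, *CG9743*, *CG15531* and *CG8630* were set aside. The rule gave 66 genes out of 6041 with a CG symbol and 17698 in the count tables. Because the difference between the groups chose these genes, their levels in the groups are given as a description, without a test.

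RNA came from whole antennae of *Drosophila melanogaster* females aged 2 to 5 days, kept at 25 °C, with 350 females named for each pair of biological replicates, and was sequenced after poly(A) selection with a strand-preserving kit. Both genotypes carried one copy of *peb*-Gal4, a driver widely used to reach olfactory sensory neurons, and of UAS-Dcr2, which boosts RNA interference. The E93RNAi and Control groups held 3 samples each. The protocol text assigns the hairpin insertion UAS-E93KK108140 to the controls and the host strain VIE-260B to E93RNAi, the reverse of the sample titles, and the sample descriptions name the controls VDRC60100. The titles were followed here. The knockdown acts only where and when the driver is active, while the RNA is that of all antennal cells. A change in the number of cells of a type and a change in RNA per cell therefore cannot be told apart.

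E93 is induced by the steroid hormone ecdysone late in metamorphosis and is known in insects as a specifier of the adult stage. In the fly it both opens and closes regulatory elements as tissues mature, so that genes of earlier stages are shut down and adult genes become available. A gene keeps its CG number until someone names it, often after a function or phenotype has been described. Many such genes encode small secreted proteins, enzymes or transporters recognised only by the family they belong to.

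Total gene counts ranged from 16639918 to 18400979 per sample, so that 3 counts corresponded to 0.163 to 0.180 CPM. The targeted gene gave 6070, 6993 and 6875 reads in the Control samples, listed from replicate 1 to 3 here and throughout, against 5954, 6021 and 5876 with E93RNAi. Its log2 fold change was -0.19 ± 0.048 (SE) (adjusted p = 0.0119 by the quasi-likelihood test of edgeR, adjusted after Benjamini and Hochberg over all genes). The adjusted p was 0.0563 without Control replicate 2 and 0.0552 without E93RNAi replicate 3. Gene counts do not separate hairpin reads from endogenous ones. The labels call the replicates biological and say no more of their origin. Markers of the antenna were abundant. The 6 listed olfactory neuron genes summed to 5373 to 5559 CPM in Control and 5080 to 5095 CPM in E93RNAi, and the 5 support cell genes to 21971 to 22565 and 26690 to 28692 CPM. Both lists were split at an adjusted p under 0.05 in edgeR. *Ir8a* was higher in E93RNAi (log2 fold change 0.46), *Orco* (-0.20) and *Ir25a* (-0.30) were lower, and the other neuron genes did not pass. *Obp28a* (0.96), *lush* (0.23) and *Obp83a* (0.21) were higher, *Snmp1* was lower (-0.37) and *Obp83b* did not pass.

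The 66 genes held little of the antennal RNA. They made up 98.8, 82.5 and 93.0 CPM in Control replicates 1 to 3 and 630.3, 658.2 and 624.3 CPM in E93RNAi replicates 1 to 3, or 91.4 ± 8.26 and 637.6 ± 18.1 CPM (SD, n = 3 each). The median member stood at 0.720 CPM in Control and 5.83 CPM in E93RNAi. Both values lay below those of the 2769 CG genes averaging 20 or more counts in E93RNAi, whose medians were 20.2 and 20.7 CPM. The 4 most abundant members, *CG32260*, *CG34382*, *CG31706* and *CG34265*, held 31.5% of the members' summed E93RNAi level.

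Among all 8770 genes averaging 20 or more counts in E93RNAi, 2.16% met the ratio of 3. The share was 2.42% for CG symbols, the 66 genes and the set-aside *CG9747*, and 2.03% for the 6001 genes with other symbols. Falls of the same size were rarer. A mean CPM at least 3 times lower in E93RNAi was found for 15 CG genes, 0.556% of those that averaged 20 or more counts in Control, against 0.610% of the genes with other symbols and 0.593% of all genes. In edgeR's test 13.8% of the 9237 tested genes were higher in E93RNAi at an adjusted p under 0.05 (14.0% of the tested CG genes), and all 66 members passed the filter on low counts and were among them. The rule used the same contrast, so nothing is read from this count. The groups did not overlap for any of the 66, where 24.0% of all genes with that mean count lay wholly higher in E93RNAi (23.1% of the CG genes).

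**Figure D1:**
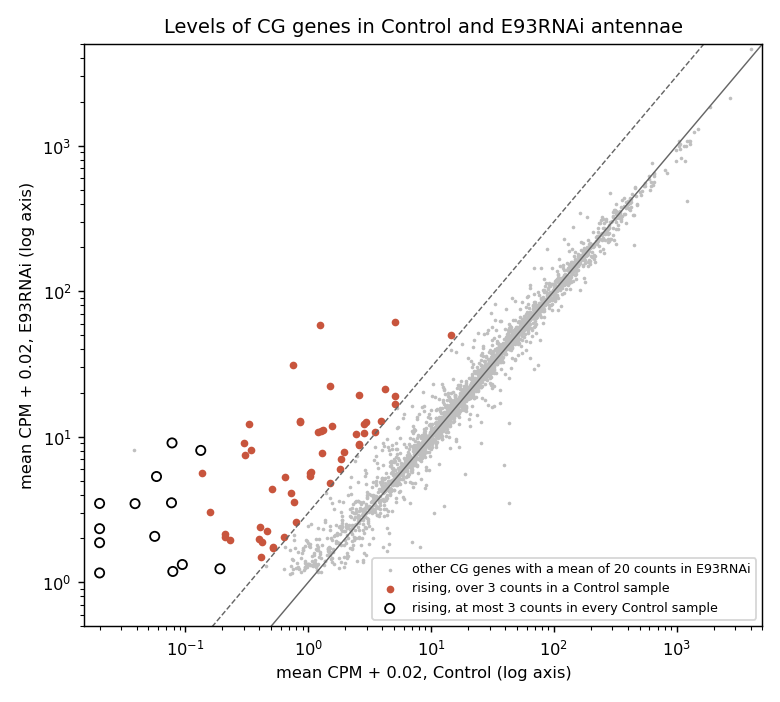
Mean CPM of CG genes in Control (x axis) and E93RNAi (y axis), both on log axes after adding 0.02, for the 2769 CG genes averaging 20 or more counts in E93RNAi. The solid line marks equal levels and the dashed line a ratio of 3. The 66 members lie on or above the dashed line, and the grey point far above it is the set-aside *CG9747*.

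The members fell into a set of 13 with at most 3 counts in every Control sample and a set of 53 with more. For the 53, the ratio of mean CPM ran from 3.13 to 48.1 with a median of 5.50. It was between 3 and 5 for 22 of them, between 5 and 10 for 17, and at least 10 for 14. The heat map shows the step between Control and E93RNAi in each of the 66 rows, beside differences among samples of one group that were widest for genes such as *CG14607*, *CG9733* and *CG8745*.

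**Figure D2:**
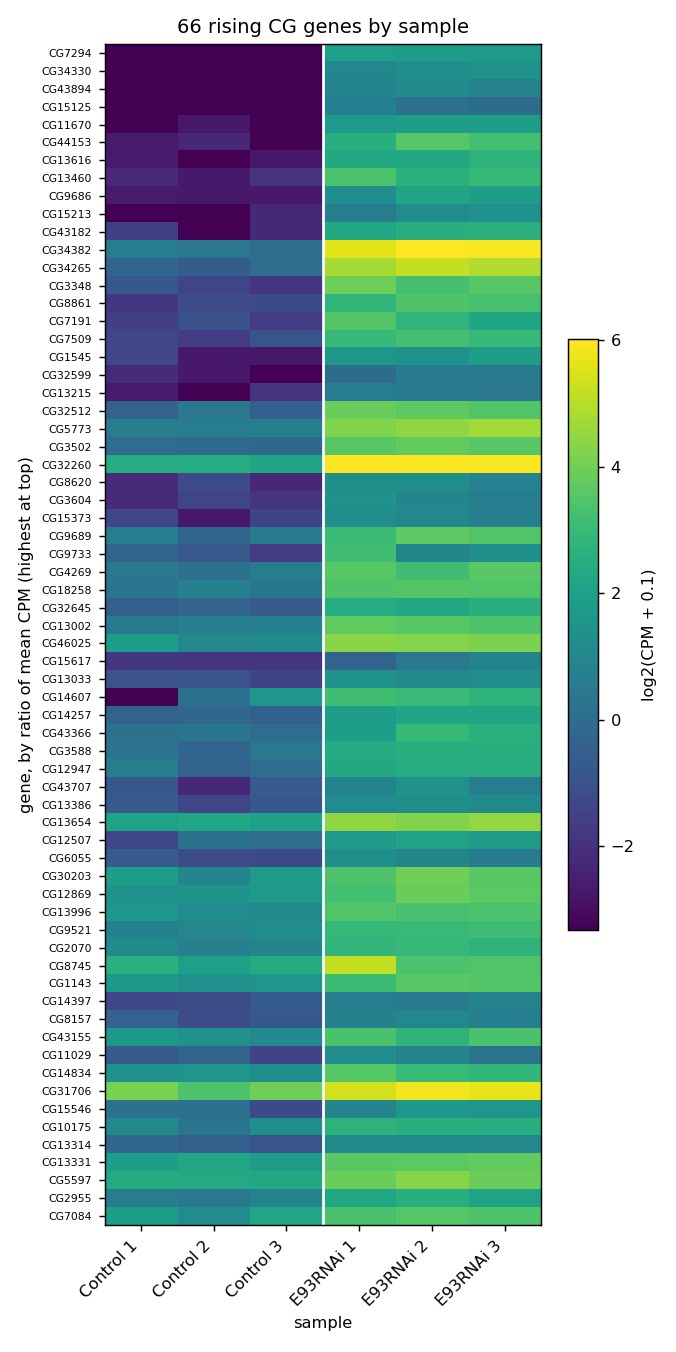
Level of each of the 66 genes (rows, ordered by the ratio of mean CPM) in the 6 samples (columns), as log2(CPM + 0.1). The 4 genes at the top had 0 counts in every Control sample, and *CG7084* at the bottom had the lowest ratio, 3.13.

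The 13 genes near zero in Control came up from almost no reads. A mean of 20 counts in E93RNAi beside at most 3 in each Control sample forces the ratio, so every CG gene of this kind other than the set-aside *CG9747* was a member. None of *CG7294*, *CG34330*, *CG43894* and *CG15125* gave a single read in Control. *CG7294* (FBgn0032284, build BDGP6 as for all positions below, arm 2L, 10688734 to 10689271, minus strand) gave 64, 60 and 59 reads with E93RNAi, at least 20.2-fold higher when Control is set to 3 counts per library. *CG34330* (FBgn0085359, arm X, 19068275 to 19068973, minus strand) had 33, 41 and 49 counts, at least 13.5-fold higher on the same floor. These genes are short, with longest coding lengths of 127 and 48 codons and a single exon each. *CG43894* had 30, 37 and 31 counts in E93RNAi and was at least 10.8-fold higher. *CG15125*, the least counted member, had 26, 18 and 16 counts and was at least 6.66-fold higher. All 4 were counted in every E93RNAi sample, with at least 16 reads each.

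The other 9 gave 1 to 9 reads over the 3 Control samples together. *CG44153* (FBgn0265002, arm 2L, 10064121 to 10180256, minus strand) was the most abundant of them, with 1, 2 and 0 reads in Control against 101, 213 and 167 with E93RNAi. The ratio of its pooled counts per total was 160, with a 95% Clopper-Pearson counting interval of 54.3 to 777. It is a long gene with up to 21 exons and 1946 codons, unlike most of this set. *CG13460* (arm 3L) gave 2, 1 and 3 reads in Control against 177, 109 and 138 with E93RNAi, a pooled ratio of 70.3 (32.1 to 193). *CG13616* (arm 3R) gave 1, 0 and 1 reads in Control against 83, 81 and 118 with E93RNAi, a pooled ratio of 140 (38.5 to 1165). For both, the lowest E93RNAi sample was over 30 times the highest Control sample in CPM, at 37.8 and 76.2 times.

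*CG11670*, listed under the synonym SP27 and so a member of the serine protease family, had a single read in Control replicate 2 and none in replicates 1 and 3. It had 53, 63 and 67 counts in E93RNAi, a pooled ratio of 182 whose counting interval, 32.3 to 7234, shows how little 1 read fixes the lower level. *CG9686* (arm X) had 1 count in every Control sample and 39, 80 and 67 in E93RNAi. *CG15213* (arm 3L, 62 codons) gave 0, 0 and 2 reads in Control against 25, 38 and 46 with E93RNAi. The levels of these 3 genes in E93RNAi were 3.45 ± 0.314, 3.50 ± 1.13 and 2.05 ± 0.545 CPM (SD, n = 3 each). The remaining 3 sat close to the limits of the rule. *CG13215* gave 1, 0 and 3 reads in Control against 24, 23 and 22 with E93RNAi. *CG32599* had 2, 1 and 0 against 15, 24 and 23. *CG15617* had 3 in each Control sample against 12, 22 and 31, a pooled ratio of 7.19 (3.56 to 16.4), the lowest of the 13. Such intervals and floors cover counting error only. With so few Control reads, 1 library could set the ratio of mean CPM. It went from 157 to 301 for *CG44153* without Control replicate 2, from 17.5 to 43.4 for *CG13215* without Control replicate 3, and from 19.8 to 41.2 for *CG32599* without Control replicate 1. *CG11670* without Control replicate 2 and *CG15213* without Control replicate 3 had no Control read left.

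**Figure D3:**
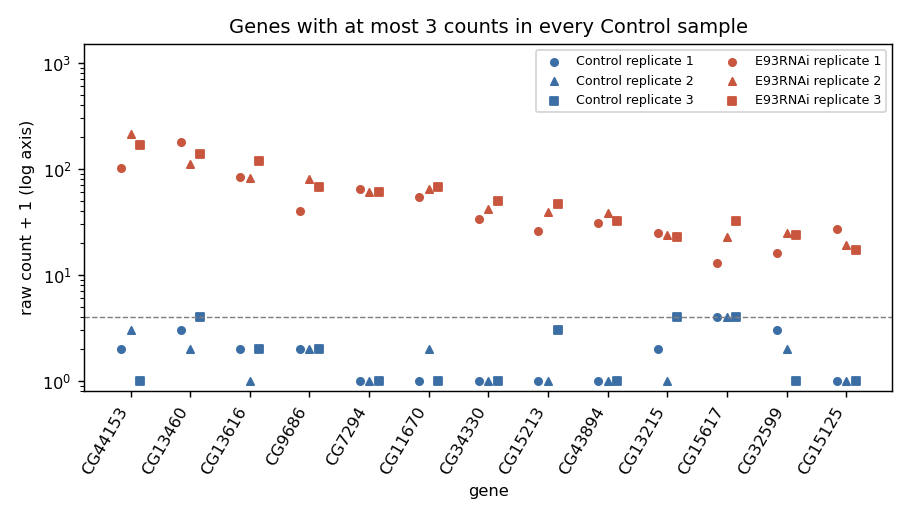
Raw counts plus 1 (log axis) of the 13 genes with at most 3 counts in every Control sample, one symbol per sample, ordered by mean E93RNAi count. The dashed line marks 3 counts. Control samples lie on or below it for every gene, and E93RNAi samples lie between 12 and 213 counts.

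Of the 53 members with measurable Control levels, *CG43182* had the highest ratio. It had 4, 0 and 2 reads in Control against 84, 102 and 111 with E93RNAi, a ratio of mean CPM of 48.1, and only its 4 reads in Control replicate 1 kept it out of the set above. *CG34382* (FBgn0085411, arm 3L, 9878985 to 9884493, plus strand) combined a high ratio with a high level. It had 24, 22 and 18 reads in Control against 854, 1144 and 1090 with E93RNAi, or 1.22 ± 0.233 and 58.2 ± 7.56 CPM (SD, n = 3), a ratio of 47.6. Its exons overlap *Taf2* on the opposite strand over 83 bases, 2.69% of its exon length, and *Taf2* itself stood at 27.5 and 28.7 CPM. *CG34265* (FBgn0085294, arm 3L, 3268461 to 3268994, plus strand) gave 12, 10 and 17 reads in Control against 465, 636 and 543 with E93RNAi, or 0.737 ± 0.179 and 31.0 ± 4.48 CPM, a ratio of 42.1. For each of these genes the E93RNAi samples lay far from the Control samples, by 20.4, 34.6 and 29.4 times between the nearest samples of the groups.

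Further down the order came 5 genes with 1 to 8 reads in each Control sample. *CG3348* gave 8, 5 and 3 reads in Control against 265, 167 and 215 with E93RNAi, a ratio of 39.7. *CG8861* had 3, 6 and 6 against 118, 190 and 175, a ratio of 32.2. *CG7191* had 4, 7 and 4 against 192, 121 and 79, a ratio of 26.2, with the E93RNAi samples spread over more than 2 times. *CG7509*, which RefSeq lists with the synonym tartan/capricious-like, after a pair of leucine-rich repeat adhesion proteins, had 5, 4 and 8 counts against 128, 165 and 137, a ratio of 25.3. *CG1545* had 5, 1 and 1 counts against 51, 46 and 64, a ratio of 22.1. In none of these 5 genes did an E93RNAi sample come within 8 times of a Control sample.

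Ratios near 15 were shared by *CG32512*, *CG5773* and *CG3502*, the first at 15.3 and the second at 15.1. *CG5773* (arm 2R, 127 codons) was the most abundant of them. It had 24, 26 and 28 reads in Control against 320, 391 and 471 with E93RNAi, or 1.48 ± 0.0401 and 22.3 ± 3.65 CPM (SD, n = 3). *CG32512* had 11, 21 and 12 counts against 249, 226 and 199. *CG3502* had 15, 15 and 14 counts against 207, 242 and 215. The Control samples of *CG5773* and *CG3502* were even, while those of *CG32512* spread over nearly 2 times.

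The 6 members with the highest CPM in E93RNAi were *CG32260*, *CG34382*, *CG31706*, *CG34265*, *CG5773* and *CG13654*. *CG32260* (FBgn0052260, arm 3L, 4142364 to 4145966, plus strand), listed as cSP232 and so a serine protease family gene, led them with 89, 96 and 81 reads in Control against 1069, 1088 and 1096 with E93RNAi. Its levels were 5.06 ± 0.574 and 61.5 ± 0.998 CPM (SD, n = 3), a ratio of 12.1, with hardly any spread among the E93RNAi samples. *CG31706* was the member best expressed in Control, at 292, 189 and 288 counts, and reached 706, 1026 and 915 in E93RNAi, a ratio of only 3.41. *CG13654* gave 69, 81 and 72 reads in Control against 380, 337 and 410 with E93RNAi, a ratio of 5.05. Per kilobase of exon the order changed, as the genes differ in length. *CG34265*, with 112 codons, then came first at 66.4 RPKM in E93RNAi, followed by *CG32260* at 31.2 and *CG31706* at 30.7 RPKM. The next in that order were *CG43182* at 22.3, *CG3348* at 21.9 and *CG34382* at 18.8 RPKM. The median over the 66 was 3.81 RPKM, against 12.2 RPKM for the 2769 CG genes.

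A protein class could be given to 15 of the 66. RefSeq synonyms named the class of 5 genes and general knowledge of fly gene families that of 10, while 51 were left without one. The best represented class was the serine protease family, secreted enzymes that cut proteins in digestion, immunity and cuticle remodelling, with *CG32260*, *CG9733* and *CG11670*. Their Control levels ran from 0.0189 to 5.06 CPM and their ratios from 9.09 to 183. *CG9733*, listed as cSP10 and as proPO-AE, after the activation of prophenoloxidase, gave 12, 9 and 4 reads in Control against 151, 33 and 45 with E93RNAi. It was the most variable of the 66 within E93RNAi.

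The carboxylesterases, enzymes that split ester bonds in odorants, lipids and hormones, had 2 members of similar ratio. *CG12869* gave 43, 48 and 59 reads in Control against 157, 264 and 228 with E93RNAi, a ratio of 4.31. *CG10175* had 33, 20 and 42 against 111, 103 and 100, a ratio of 3.30. Both therefore stood among the smaller rises, with Control levels of 2.84 ± 0.327 and 1.799 ± 0.597 CPM (SD, n = 3).

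Single genes stood for each of the other classes. The lipase *CG18258* gave 19, 28 and 21 reads in Control against 184, 202 and 203 with E93RNAi, a ratio of 8.62. The short-chain dehydrogenase *CG2070* had 35, 28 and 34 against 119, 133 and 119, a ratio of 3.80. *CG9521*, listed as GMCtheta2 and so a glucose-methanol-choline oxidoreductase, had 27, 34 and 41 against 127, 137 and 154, a ratio of 4.10. These enzymes were even among samples, with no E93RNAi sample more than 1.3 times another. *CG32645*, of the acyltransferase family that includes *drop dead*, had 10, 13 and 10 counts against 93, 81 and 107, a ratio of 8.46. *CG7084*, of the SLC22-like family of organic ion transporters, had 59, 39 and 85 against 170, 208 and 195, the lowest ratio of all. *CG6055*, a C-type lectin, had 9, 6 and 6 counts against 41, 32 and 25. *CG3604*, a Kunitz-type protease inhibitor, had 2, 5 and 3 counts against 46, 33 and 27. The chitin-binding gene *CG14607* had 0, 17 and 53 counts in the Control samples against 152, 140 and 117, so that its ratio of 6.05 rested on widely differing Control samples. The ratio was 4.03 without Control replicate 1, 5.38 without replicate 2 and 16.1 without replicate 3. In DESeq2, an alternative fit, its adjusted p was 0.272. Of the 13 genes near zero in Control, *CG11670* was the 1 with a class.

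Members without a class covered a wide range of lengths and levels. The longest coding lengths were those of *CG43366* (2140 codons) and *CG43707* (2021 codons), and both were low per kilobase, at 0.741 and 0.220 RPKM in E93RNAi. *CG43366* gave 17, 20 and 17 reads in Control against 62, 134 and 108 with E93RNAi, a ratio of 5.57. *CG43707* gave 8, 2 and 10 against 30, 48 and 26, a ratio of 5.19. Among the short ones, *CG4269* (102 codons) gave 21, 18 and 27 reads against 203, 155 and 222, a ratio of 8.77. *CG13002* (212 codons), one of the members highest per kilobase at 18.6 RPKM, gave 23, 28 and 30 reads against 224, 212 and 192, a ratio of 7.76. In these genes the lowest E93RNAi sample stood clear of the highest Control sample, by a wide margin in *CG13002* and by less in *CG43707*. *CG5597*, at 18.2 RPKM, gave 88, 91 and 89 reads against 258, 356 and 272, a ratio of 3.29 on very even Control samples. *CG15373* (1162 codons) gave 5, 1 and 5 reads against 40, 35 and 27, a ratio of 9.23. *CG8620* gave 2, 6 and 2 against 40, 43 and 30. *CG13033* gave 7, 8 and 5 against 46, 37 and 42, a ratio of 6.19. The members not described singly had ratios between 3 and 6.

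The rule was also applied without 1 pair of same-numbered samples, and the samples left out, which had no part in that application, were then read. The numbers serve only to divide the samples, as no label says that a number marks a pair. Of the genes chosen in this way 63, 59 and 61 were among the 66, so these are largely the same genes read again. Chosen on replicates 2 and 3, 68 CG genes met the rule, all 68 were higher in E93RNAi in pair 1, and 56 of them (82.4%) had a ratio of at least 3 there. Chosen without pair 2, 61 genes met it, all 61 were higher in that pair, and 54 (88.5%) had the ratio. Chosen without pair 3, 68 genes met it, all 68 were higher, and 57 (83.8%) had the ratio. The median ratios in the pairs left out, over genes with a Control count there, were 5.37, 7.32 and 6.36. Of the 2766 CG genes averaging 20 or more counts in E93RNAi and not set aside, 2.31%, 2.68% and 2.39% had a ratio of 3 in these pairs. The rule was set with earlier results of these data known, so the shares are a description and not a separate test.

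Between the nearest samples of the groups, the lowest E93RNAi sample was at least 3 times the highest Control sample for 45 genes and at least 2 times for 63. Among all genes averaging 20 or more counts in E93RNAi 1.38% and 2.25% did so, and among the CG genes 1.66% and 2.82%. The rule used these values, so the members' counts are a description. The 3 members under 2 times were *CG11029* at 1.62, *CG8745* at 1.67 and *CG15546*, with 17, 17 and 6 reads in Control against 31, 54 and 51, at 1.77 times. The coefficient of variation in E93RNAi had a median of 16.1% and was at most 25% for 50 genes. It was above 50% for *CG9733* (87.7%) and *CG8745* (76.4%).

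Those genes shared a pattern across samples. *CG8745*, an aminotransferase of the alanine-glyoxylate type, gave 102, 66 and 97 reads in Control against 617, 181 and 203 with E93RNAi. Replicate 1 of E93RNAi was thus 3.22 times the next sample, and in *CG9733* it was 3.55 times. The other 64 members had no E93RNAi sample 2 times above the next. Genes of immune peptides that met the ratio of 3 had the same high sample. *AttA*, an antibacterial attacin, had 39, 12 and 2 reads in Control against 339, 60 and 41 with E93RNAi. *BomS1*, of the Bomanin peptides, had 20, 11 and 10 against 205, 26 and 28. *Dro*, which encodes drosocin, had 14, 3 and 1 against 190, 16 and 10. The part of this in the levels of *CG8745* and *CG9733* was not tested. Without E93RNAi replicate 1, the ratio was 2.12 instead of 3.80 for *CG8745* and 4.50 instead of 9.09 for *CG9733*. Of the 53 members with over 3 Control counts in a sample, 6 had a ratio that moved by more than 1.5 times when 1 sample was left out. Besides these genes and *CG14607* they were *CG43182* (103 without Control replicate 1), *CG1545* (54.7 without Control replicate 1) and *CG8620* (18.7 instead of 11.3 without Control replicate 2). For 10 members the ratio fell below 3 when some sample was left out, all with ratios under 4 to begin with.

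**Figure D4:**
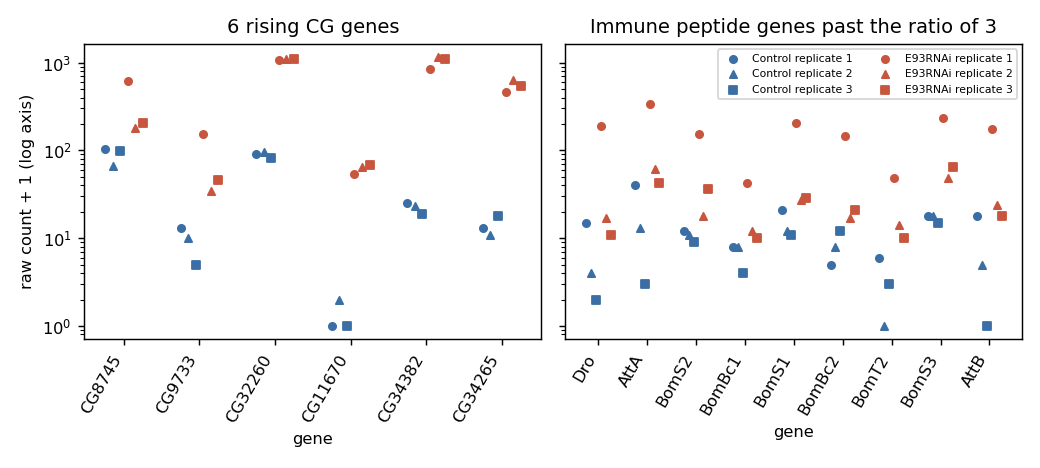
Raw counts plus 1 (log axis) by sample for 6 rising CG genes (left) and for the 9 listed immune peptide genes that met the ratio of 3 (right). In *CG8745*, *CG9733* and the immune peptide genes E93RNAi replicate 1 stands above the other E93RNAi samples, while in *CG32260* the E93RNAi samples lie between 1069 and 1096 counts.

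The members were spread over the arms, with 15 on X, 13 on each of 2L, 2R and 3L, and 12 on 3R. Of the 2769 CG genes, 18.2% lie on X and 25.5% on 3R, against 22.7% and 18.2% of the members. Immediate neighbours among the members were few. On arm 2L *CG46025* (7754174 to 7765915) and *CG7191* (7767628 to 7775033) lie next to each other on the plus strand, 1713 bases apart. *CG46025* gave 60, 35 and 39 reads in Control against 351, 342 and 329 with E93RNAi, a ratio of 7.52, against 26.2 for *CG7191*. Of the genes on either side, *CG7203* had a mean of 2.00 counts in Control and 10.3 in E93RNAi, and *lncRNA:CR45718* and *CG7179* had none.

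On arm X, *CG9686* (9879870 to 9880535) and *CG9689* (9881953 to 9883670) lie in the same orientation, 1418 bases apart. *CG9689* gave 24, 13 and 25 reads in Control against 138, 231 and 201 with E93RNAi, a ratio of 9.10. In both genes replicate 2 was the highest E93RNAi sample and replicate 1 the lowest. This order is not particular to the pair, as replicate 2 was highest in 28 of the 66 members and replicate 1 lowest in 28. The next gene along, *CG9691*, was far more abundant and did not share the direction, at 427.5 CPM in Control and 376.4 CPM in E93RNAi (log2 fold change -0.21, adjusted p = 0.0123, edgeR). The pair thus ended at a highly expressed gene that was lower in E93RNAi.

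Another 3 members lay beside a gene with another symbol that met the ratio. *CG44153* ends 196 bases from *Spn31A*, a serine protease inhibitor of the serpin family on the opposite strand, which had 4, 3 and 5 reads in Control against 38, 57 and 69 with E93RNAi. *CG13215* lies beside *Listericin*, an antibacterial peptide gene, with 12, 3 and 10 counts against 177, 81 and 76. *CG13996* lies beside *H2.0*, a homeobox gene, with 5, 6 and 1 counts against 27, 37 and 33. In all, 7 of the 66 (10.6%) had an immediate neighbour that met the ratio of 3, against 2.13% of the 2769 CG genes. Of the 128 distinct neighbours that were not members, 56 were tested, 15 were higher (26.8%, beside 13.8% of all tested genes) and 5 were lower, with a median log2 fold change of 0.030.

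The 13 genes near zero in Control encode shorter proteins at the median. Their longest coding lengths had a median of 222 codons, against 407 codons for the other 53 members and 401 for the 2769 CG genes. A length under 150 codons was found in 4 of the 13, in 10 of the 53 and in 10.6% of the CG genes. A single exon was annotated for 5 of the 13 (38.5%) and 7 of the 53 (13.2%), against 10.1% of the CG genes. With 13 genes these shares rest on a few members, and *CG44153* with 1946 codons stood apart from the rest. The cut at 3 raw counts is not scaled by length, so a gene with short exons meets it more easily. Median exon length was 752 bases for the 13, 1657 for the 53 and 1787 for the CG genes. Length is therefore not independent of the grouping, and nothing is read from the difference.

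**Figure D5:**
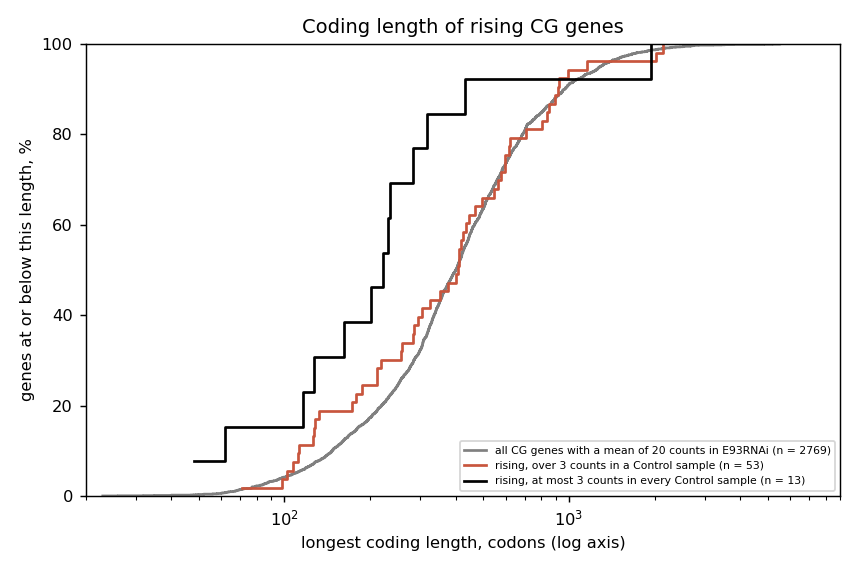
Share of genes (y axis, percent) whose longest annotated coding length is at or below the length on the x axis (codons, log axis), for the 13 members near zero in Control, the 53 other members and all 2769 CG genes averaging 20 or more counts in E93RNAi. The median of the 13 was 222 codons, against 407 and 401. Beyond 431 codons the curve of the 13 is flat up to its longest gene, at 1946 codons. The cut at 3 counts that formed the 13 is not scaled by length.

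Exons of 11 members overlapped those of a gene on the opposite strand, 16.7% against 37.0% of the CG genes, and none overlapped a gene on the same strand. The overlap covered most of the member in 3 cases. *CG13314* shared 89.4% of its exon length with *Galk*, which stood at 30.4 and 31.4 CPM in Control and E93RNAi, so counts of *CG13314* (13, 11 and 8 against 35, 37 and 35) are uncertain if counting ignored strand. *CG12947* overlapped *asRNA:CR31514* over 78.7% of its exons, and the latter was below 0.1 CPM in both groups. *CG32599* lies wholly within *asRNA:CR46473*, which is not among the genes counted by the authors and so has no level here. Where the remaining 8 overlapped another gene it was over at most 22.5% of their exon length.

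Named genes that met the same ratio numbered 122, of which 15 (12.3%) had at most 3 counts in every Control sample, against 13 of the 66 unnamed ones (19.7%). Lists of named genes of related families, picked by symbol, moved in both directions. Of 22 tested cuticle protein genes 8 were higher and 4 lower, and of 67 tested cytochrome P450 genes 9 were higher and 22 lower at an adjusted p under 0.05 in edgeR. Of 59 tested genes with symbols starting with Jon, Ser, SP or Sp, or ending in Try, 8 were higher and 6 lower. That pattern is not limited to serine proteases, so its counts do not describe the family. The 1 gene of this list that met the ratio of 3 was *Spn31A*, an inhibitor that the symbol pattern took in. Of 21 tested transporter genes 7 were higher and 3 lower, and *MFS3* went from 0.914 ± 0.0942 to 33.0 ± 2.11 CPM (SD, n = 3). The immune peptide list had 8 of 13 tested genes higher and 1 lower, the odorant-binding list 9 of 27 higher and 4 lower, and the glutathione transferase list 11 of 32 higher and 6 lower. In the 9 immune peptide genes that met the ratio of 3, E93RNAi replicate 1 was far above the other E93RNAi samples. Calls among these genes thus rest largely on 1 library. By CPM, Control replicate 1 was also the highest Control sample in these genes, other than in *BomBc2* (4, 7 and 11 Control reads). Of 21 UDP-glycosyl transferase genes 4 were higher and 8 lower, of 6 Osiris genes 3 were higher and 1 lower, and of 8 elongase and desaturase genes none was higher and 2 were lower. The single tested Turandot gene and the 2 tested lectin genes did not pass the test. Over all tested genes 13.8% were higher and 10.5% lower.

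Markers of other cells were read for the same samples. Those of testis summed to 0.351 to 0.791 CPM and those of ovary to 0.117 to 0.452 CPM over the 6 samples, and the groups overlapped in both. The 4 muscle markers summed to 4.30 to 6.37 CPM in Control and 17.4, 4.18 and 19.4 CPM in E93RNAi replicates 1 to 3, and *Act88F* was at 0 in all E93RNAi samples. Of these *Mhc* was higher (1.63 and 8.49 CPM, adjusted p = 0.0180, edgeR), with 205, 22 and 222 reads in E93RNAi. *Mlc2* and *TpnC4* did not pass. The 6 photoreceptor markers summed to 7.77 to 8.53 CPM in Control and 15.1 to 16.9 CPM in E93RNAi, with *ninaE* at 1 to 5 counts throughout. Among them *ninaC*, *Rh4* and *trp* were higher (adjusted p = 0.000353, 0.000469 and 0.00113, edgeR), and *ninaE*, *Rh3* and *Rh6* were not tested. Markers of hemocytes summed to 22.2 to 26.1 and 29.7 to 39.7 CPM. Of these *Pxn* was higher (6.76 and 19.1 CPM, adjusted p = 0.000252, edgeR), *Hml* stood at 16.2 and 13.8 CPM and *NimC1* at 1.56 and 1.40 CPM, and *He* had 1 read in all. Those of fat body summed to 5.95 to 16.2 and 6.544 to 22.7 CPM. Of these *Yp3* was higher (adjusted p = 0.0378, edgeR), with 2, 1 and 24 reads in Control against 4, 124 and 76 with E93RNAi. *Yp1* and *Yp2* did not pass. Gut markers summed to 70.3 to 78.2 and 89.3 to 103.6 CPM, with *Jon65Aiv* and *kappaTry* at 0. Both *Mal-A1* and *LManII* were higher (adjusted p = 0.000244 and 0.0102, edgeR). The oenocyte markers found, *Cyp4g1* and *FASN2*, summed to 0.170 to 0.543 and 1.81 to 2.34 CPM. Summed levels of the 3 Johnston's organ markers were 8.78 to 10.9 and 48.3 to 58.4 CPM, of which *nompC* made up 7.80 and 51.9 CPM on average, while *iav* stood at 1.84 and 1.26 CPM and *nan* at 0.359 and 0.242 CPM. The 4 glial markers summed to 2826 to 2960 and 2581 to 2616 CPM. That sum is mostly *Gs2*, which was lower (2723 and 2365 CPM), while *repo*, *moody* and *Eaat1* were higher in E93RNAi, with log2 fold changes of 0.39, 0.37 and 0.67 (adjusted p = 0.00112, 0.00157 and 0.00234, edgeR). The part of these cell types in the members' levels was not tested.

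The rule cut through a continuum of values. Just inside the ratio of 3 lay *CG7084* at 3.13, *CG2955* at 3.25 and *CG5597* at 3.29, and just outside lay *CG42821* at 2.997, *CG13972* at 2.98 and *CG15414* at 2.96. By mean count in E93RNAi, *CG15125* at 20, *CG32599* at 20.7 and *CG15617* at 21.7 were just inside, and *CG33098* at 19.7, *CG4570* at 19.3 and *CG12017* at 16.7 just outside with ratios of 11.3, 5.24 and 3.48.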

How the data were processed

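The authors deposited raw read counts per gene, whole numbers in 1 file per sample, for 17698 FlyBase gene identifiers. The submitters' processing notes name cutadapt 1.8, STAR 2.5.3a, HTSeq 0.9.1 and the build BDGP6. The annotation release and the strand setting are not given in the sources used here. The 5 summary lines that name no gene (13.1% to 13.8% of the listed reads) were left out. Symbols matched 17560 identifiers. Positions, exon lengths and coding lengths came from Ensembl release 115 (BDGP6.54).

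CPM used total gene counts. Genes kept by filterByExpr were fitted with edgeR 4.0.16 (R 4.3.3) under TMM scaling, with group as the only term. Alternatives were DESeq2 1.42.0, other scalings, no filter, a replicate block and leaving out samples. The fit was tested on simulated data.

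The members and lists were chosen with earlier results of these data known. The naming rule took the 12 best counted members near zero in Control, the 12 others highest in ratio, the 6 highest in CPM, members sharing a class, adjacent members, the genes at the thresholds and *Eip93F*. No sequence was used. Others named were chosen after their values were seen.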

Additional observations from a re-analysis of the deposited data

How the results depend on the processing

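The number of rising CG genes was 66 under TMM-adjusted totals and DESeq2 size factors, and the same 66 genes met the rule there. A ratio of 2 gave 110 genes, a ratio of 5 gave 44, mean counts of 10 and 50 gave 90 and 47, and leaving out genes with overlapping exons gave 55. Leaving out 1 sample gave 64 to 71 genes, and leaving out both samples of a number gave 61 to 68. The set near zero in Control held 13 genes, 15 with a mean of at most 3 counts, 13 to 15 without 1 Control sample, and 4 when 0 counts were required in every Control sample, a stricter criterion by construction. Genes called higher in E93RNAi numbered 1274 in all and 988 to 1441 over the other fits. All 66 members were among them except with DESeq2, where *CG14607* had an adjusted p of 0.272. With the replicate number as a block 1350 genes were higher, all 66 members included, and no call changed among the named members and *Eip93F*. Same-numbered samples deviated from their group means with correlations of 0.187, 0.040 and 0.169 over 8395 genes, E93RNAi replicate 2 went better with Control replicate 3 (0.085), and no label says that a number marks a pair. Among 396 repeats for 36 genes named by the rule, 394 kept direction and side of the threshold. The other 2 were *Eip93F* without Control replicate 2 and without E93RNAi replicate 3 (log2 fold change -0.16 in both, adjusted p = 0.0563 and 0.0552, edgeR). All of the 36 but *Eip93F* were members, chosen on this same contrast, so nothing is read from the 394. Named genes just outside the thresholds were not among the 36. Members beside another member numbered 4, as immediate neighbours and within 2 genes. The planned comparisons of protein likeness, protein composition and promoter words were not run, as no sequence was used here. Levels of 3 counts or fewer limit what can be said of the 13 genes in Control.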
